A study of Mus musculus with 16 samples.

Results

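The cluster of miR-322, miR-351 and miR-503 is a group of X-linked mouse miRNA genes, and 5 of its mature products were followed here: mmu-miR-322-5p, mmu-miR-322-3p, mmu-miR-351-5p, mmu-miR-503-5p and mmu-miR-503-3p. They were taken by name from the deposited count tables, in which they are 5 of 1978 listed miRNA names, and all 5 were found in each of the 16 tables. The libraries came from mouse blastocysts cut with a laser into a mural piece, made of trophectoderm that surrounds the cavity, and a polar piece, which holds the inner cell mass. Small RNA was sequenced from mural and polar pieces of embryos diapaused in vivo and collected at EDG7.5 (n = 3 libraries of each piece), of embryos exposed to mTOR inhibition, mTORi in the labels (n = 3 of each), and of normal WT embryos at E4.5 (n = 2 of each). The series asks which miRNAs differ when embryos pause in natural diapause or through inhibition of mTOR, a kinase that couples nutrients to growth. No embryonic day, dose or inhibitor name is labelled for the mTORi embryos, and no genotype or strain for any group, so embryo age and treatment cannot be told apart in either comparison with WT. How many embryos were pooled in a library is not given in the labels, so every p-value rests on the spread between libraries, which may be technical.

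The 5 mature miRNAs come from 3 hairpins on the minus strand of chromosome X (GRCm38): Mir322 at 53054255 to 53054349, Mir503 at 53053984 to 53054054, 200 bases from it, and Mir351 at 53053255 to 53053353. They lie within 1095 bases, and no annotated gene overlaps any of the 3 hairpins. The annotated transcript C430049B03Rik ends 696 bases upstream of Mir322, and Mir542 and the Mir450 hairpins follow downstream. A mature miRNA guides the silencing complex to messenger RNAs that pair with its seed, bases 2 to 8 from the 5′ end, and miRNAs of a cluster are commonly cut from a shared primary transcript before each hairpin is processed on its own. In the mouse, miR-322 and miR-503 are known for holding back the cell cycle through targets such as cyclin D1 and Cdc25a, and miR-322 is among the miRNAs enriched in trophoblast stem cells.

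The mature sequences, from RefSeq (GRCm38.p6), which held all 5 members, are printed with the seed in capitals to show which members share one. miR-15a-5p and miR-125a-5p are shown as relatives outside the cluster.
mmu-miR-322-5p: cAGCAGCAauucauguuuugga
mmu-miR-503-5p: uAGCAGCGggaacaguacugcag
mmu-miR-15a-5p: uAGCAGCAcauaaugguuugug
mmu-miR-351-5p: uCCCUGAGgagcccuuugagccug
mmu-miR-125a-5p: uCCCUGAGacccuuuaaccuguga
mmu-miR-322-3p: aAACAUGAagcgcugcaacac
mmu-miR-503-3p: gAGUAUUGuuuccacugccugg
The seed of miR-322-5p is that of miR-15a-5p and of 8 other listed names, while the seed of miR-503-5p matches it in 6 of 7 bases. The seed of miR-351-5p is that of miR-125a-5p, so the cluster joins miRNAs of separate seed families. The 3p arms, cut from the other strand of the Mir322 and Mir503 hairpins, share neither seed.

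The libraries held 122251 miRNA counts in all, 12607 to 20051 in mural diapaused, 3490 to 4386 in mural mTORi, 6435 to 8366 in mural WT, 9049 to 14500 in polar diapaused, 2184 to 3501 in polar mTORi and 1744 to 4940 in polar WT libraries. Of the libraries used as mural mTORi, all 3 have titles that name no piece and carry both treatment words, and their placing comes from the tissue label, the treatment label and the file's own column name. The epiblast miRNAs of the miR-302 and miR-367 cluster, on a list of 5 names of which miR-302c-3p was at 0 in all libraries, had no count in the 8 mural libraries, and 15, 2 and 14 counts in polar diapaused, mTORi and WT libraries. The erythroid list of miR-451a, miR-144-3p and miR-486a-5p made up 2.35% of polar WT replicate 2. Of its 118 counts in the polar WT libraries, 115 were of miR-451a, 3 of miR-144-3p and 0 of miR-486a-5p. miR-203-3p and miR-205-5p of stratified epithelia made up 25.8% of polar mTORi replicate 3, the only polar mTORi library with any miR-503-3p. The part of these miRNAs in the results below was not tested.

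The cluster made up several percent of all miRNA counts in mural fragments and close to 1% in polar fragments. Its share was 4.57% ± 0.738 (SD, n = 3) in mural diapaused, 3.0% ± 0.384 (n = 3) in mural mTORi and 7.27% ± 0.290 (n = 2) in mural WT libraries. In polar fragments it was 1.02% ± 0.387 (n = 3) in diapaused, 1.33% ± 0.637 (n = 3) in mTORi and 0.607% ± 0.372 (n = 2) in WT libraries. The lowest mural library, mTORi replicate 2 at 2.63% (exact 95% binomial interval 2.13 to 3.20), lay above the highest polar library, mTORi replicate 2 at 1.92% (1.39 to 2.59). These intervals cover counting error only. miR-322-5p was the 7th to 10th most abundant miRNA in each of the 8 mural libraries, and ranked between 17th and 85th in the 8 polar libraries. In bulk fragments, fewer cells that express a miRNA and less of it per cell cannot be told apart.

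miR-322-5p, the member with the miR-15/16 seed, had high and similar levels in all mural groups. Levels here are counts scaled by edgeR's TMM factors to a library of 1000000 (CPM). It was at 29226, 22425 and 31005 CPM in mural diapaused, 22436, 15921 and 24003 CPM in mural mTORi, and 21187 and 18417 CPM in mural WT libraries. In polar libraries it was at 4330, 3746 and 1606 CPM in diapaused, 6438, 11842 and 2850 CPM in mTORi, and 1038 and 2059 CPM in WT. Every mural library lay above every polar one, which was true of no other miRNA among the 102 tested (0.98%). The 3 mural groups overlapped their neighbours in the order of means, as did the 3 polar groups. Groups further apart in that order did separate. Every mural diapaused library lay above both mural WT libraries, as it did for 32.4% of the tested miRNAs. Every polar mTORi library lay above both polar WT libraries, as it did for 21.6%. miR-322-3p, the other arm of the same hairpin, showed the same order of pieces at lower levels. Its means were 4430 ± 1139 CPM in mural diapaused, 4567 ± 1397 in mural mTORi and 4861 ± 616 in mural WT, against 1229 ± 683 in polar diapaused, 1820 ± 1124 in polar mTORi and 931 ± 152 in polar WT libraries (SD, n = 3, 3 and 2 in each piece). One mural mTORi library, at 2959 CPM, fell just below the highest polar mTORi library, at 2961 CPM.

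miR-351-5p, the member with the miR-125 seed, separated the mural groups. It was at 12655, 11580 and 10726 CPM in mural diapaused, 1671, 1373 and 2302 CPM in mural mTORi, and 17603 and 16384 CPM in mural WT libraries. In polar libraries it was at 3264, 1924 and 2267 CPM in diapaused, 2146, 2961 and 1781 CPM in mTORi, and 0 and 2883 CPM in WT. Every mural diapaused library lay below both mural WT libraries, as it did for 10.8% of the tested miRNAs, and mural mTORi lay among the polar groups. The 0 in polar WT replicate 1 was among 1744 counts, which allows a share of up to 0.172% of that library.

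miR-503-5p, close to miR-322-5p in its seed, followed the pattern of miR-351-5p and not that of its hairpin neighbour miR-322-5p. It was at 13759, 6678 and 12989 CPM in mural diapaused, 3580, 2471 and 1644 CPM in mural mTORi, and 27729 and 28104 CPM in mural WT libraries. In polar libraries it was at 4130, 1316 and 1039 CPM in diapaused, 5007, 0 and 712 CPM in mTORi, and 1038 and 2883 CPM in WT. Mural diapaused again lay below mural WT, and above mural mTORi, with no overlap (the second was true of 29.4% of the tested miRNAs), and the mural mTORi libraries overlapped the polar ones. The 0 in polar mTORi replicate 2 was among 2184 counts and allows up to 0.137%. miR-503-3p, its other arm, was sparse, with 33, 32 and 18 counts in mural diapaused, 11, 3 and 10 in mural mTORi, and 20 and 28 in mural WT libraries. In polar libraries it had 7, 4 and 6 counts in diapaused, 0, 0 and 6 in mTORi, and 0 and 1 in WT.

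**Figure D1:**
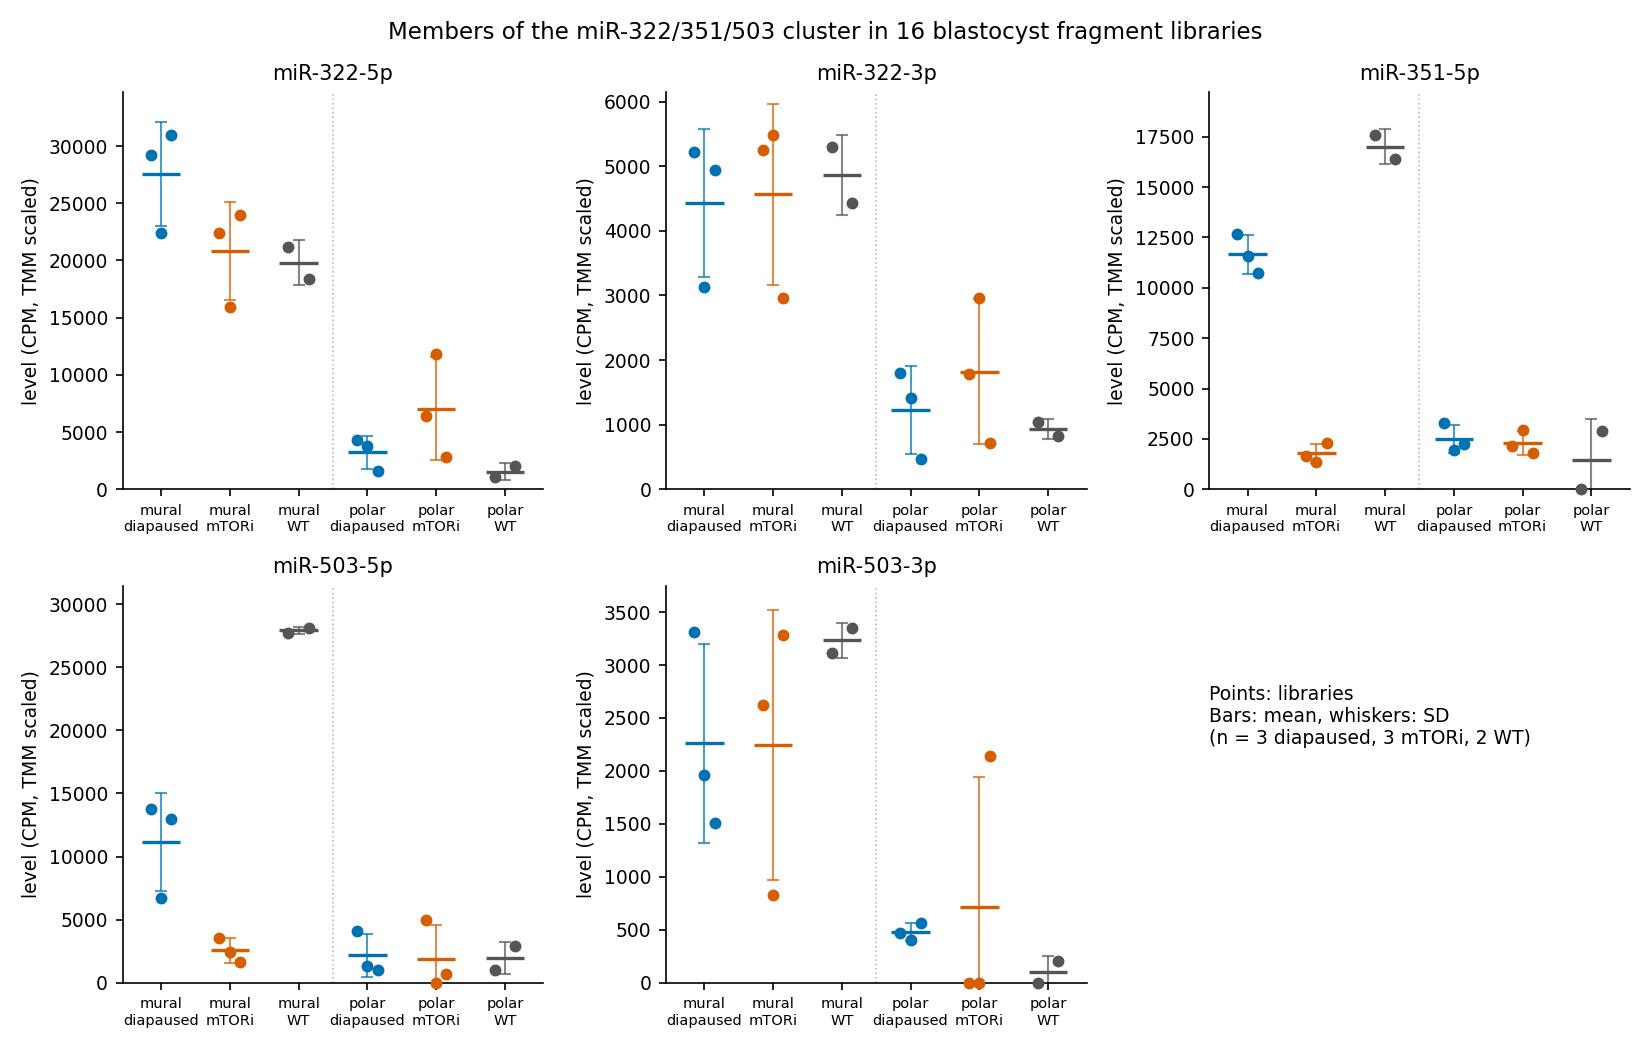
Level of each member (CPM, TMM scaled, linear axis) in the 16 libraries, by piece and treatment; points are libraries, bars are means and whiskers are SDs (n = 3, 3 and 2 in each piece), cut at 0. Among the 3 mural groups miR-322-5p and miR-322-3p differed less than miR-351-5p. The latter was at 1373 to 2302 CPM in mural mTORi libraries, against 16384 to 17603 CPM in mural WT libraries.

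All of the comparisons between groups were made with edgeR's quasi-likelihood test in one fit, adjusted by Benjamini-Hochberg over the 102 miRNAs that passed a filter on low counts and called at an adjusted p under 0.05. All 5 members passed that filter, but miR-503-3p did so only through mural libraries: before TMM scaling, it was above the filter's cutoff of 1758 counts per 1000000 in 5 mural and 0 polar libraries. Its mural over polar values are therefore given as a description.

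miR-322-5p, miR-322-3p, miR-351-5p and miR-503-5p were higher in mural than in polar fragments of diapaused and WT embryos, and in mTORi embryos this was so of miR-322-5p. In diapaused embryos, miR-322-5p was 8.45-fold higher in mural fragments (log2 3.08, SE 0.44, edgeR adjusted p = 0.000193). Log2 differences of 2.21 for miR-351-5p (SE 0.46, edgeR adjusted p = 0.00266), 2.32 for miR-503-5p (SE 0.66, adjusted p = 0.026) and 1.81 for miR-322-3p (SE 0.48, adjusted p = 0.0184) also passed. These calls stand beside 13.7% of the tested miRNAs called higher in mural fragments, and a median log2 difference of -0.10 over all tested. miR-503-3p was at 2261 ± 940 CPM in mural and 479 ± 81.7 CPM in polar diapaused libraries (SD, n = 3 each). Without polar diapaused replicate 2 or replicate 3 the calls of miR-503-5p and miR-322-3p were lost (adjusted p up to 0.113), whereas those of miR-322-5p and miR-351-5p held in all 6 fits that left out a diapaused library. Scaled by library size alone, which moves the median of all tested miRNAs to -0.58, the calls that remained among the members were those of miR-322-5p and miR-351-5p.

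In WT embryos, miR-322-5p was 11.7-fold higher in mural than in polar fragments (log2 3.54, SE 0.62, edgeR adjusted p = 0.00231). Log2 differences of 3.24 for miR-351-5p (SE 0.64, edgeR adjusted p = 0.00453), 3.68 for miR-503-5p (SE 0.90, adjusted p = 0.0135) and 2.41 for miR-322-3p (SE 0.72, adjusted p = 0.0366) passed too. Of the tested miRNAs, 6.86% were called higher in mural WT fragments, and the median of all tested was -0.03. miR-503-3p had 48 counts in mural and 1 in polar WT libraries, a ratio of 22 after scaling with an exact 95% interval of 3.77 to 888 (counting error only). Leaving out any of the 4 WT libraries ended the call of miR-322-3p (adjusted p 0.0842 to 0.226), and leaving out mural or polar WT replicate 1 ended that of miR-503-5p (adjusted p up to 0.112), while miR-322-5p was called in each of the 4 fits. miR-351-5p was called in the fits without a mural WT library or polar WT replicate 1; without polar WT replicate 2 the polar WT group holds no count of it. In these fits the library left alone in its group is assumed to vary like the other groups.

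In mTORi embryos, miR-322-5p was 2.98-fold higher in mural fragments (log2 1.57, SE 0.44, edgeR adjusted p = 0.0473), where 1.96% of the tested miRNAs were called higher. The other miRNA called higher was miR-10b-5p (log2 1.21, SE 0.34, edgeR adjusted p = 0.0473), which was also called higher in mural fragments of WT and diapaused embryos. miR-322-3p was not called, at log2 1.36 (SE 0.56, edgeR adjusted p = 0.183), nor were miR-503-5p, at 0.41 (SE 0.82, adjusted p = 0.878), and miR-351-5p, at -0.37 (SE 0.59, adjusted p = 0.866). The call of miR-322-5p was lost without any 1 of 5 of the 6 mTORi libraries (adjusted p up to 0.142) and was log2 2.53 (edgeR adjusted p = 0.00568) once polar mTORi replicate 2, the polar library with the highest miR-322-5p, was left out. Averaged over the 3 treatments, miR-322-5p was 6.65-fold higher in mural fragments (log2 2.73, SE 0.29, edgeR adjusted p = 3.72e-06). The averages were log2 1.69 for miR-351-5p, 1.86 for miR-322-3p and 2.14 for miR-503-5p, beside 14.7% of the tested miRNAs called higher. All of these calls held in each of the 16 fits that left out 1 library, although the fit without polar WT replicate 2 sets miR-351-5p against 0 counts in polar WT.

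Among the changes against WT, those of miR-351-5p and miR-503-5p under mTOR inhibition in mural fragments were the largest of the cluster. miR-351-5p fell to 1782 ± 474 CPM in mural mTORi libraries (SD, n = 3), against 16994 ± 862 CPM in mural WT libraries (n = 2). This is 0.105 of the WT level (log2 -3.26, SE 0.55, edgeR adjusted p = 0.000755). miR-503-5p fell to 2565 ± 972 CPM in mural mTORi, against 27917 ± 265 CPM in mural WT libraries. It was at 0.0939 of the WT level (log2 -3.41, SE 0.75, edgeR adjusted p = 0.00477). The mural mTORi levels rest on few counts, 7, 5 and 7 of miR-351-5p and 15, 9 and 5 of miR-503-5p. Both were called in each of the 5 fits that left out a mural mTORi or WT library and under all 6 alternative analyses. They are 2 of the 6 miRNAs called lower there, which are 5.88% of those tested, and the median log2 change of all tested was -0.06.

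The other members did not pass the test in that comparison. A further product of the same 1095 bases, miR-351-3p, was too sparse for the filter, with 1 count in mural mTORi and 16 in mural WT libraries. miR-322-5p was at 20787 ± 4286 CPM in mural mTORi and 19802 ± 1958 CPM in mural WT libraries (log2 0.07, SE 0.45, edgeR adjusted p = 0.95). miR-322-3p was at log2 -0.08 (SE 0.53, edgeR adjusted p = 0.95). miR-503-3p, from the same hairpin as miR-503-5p, was at log2 -0.54 (SE 0.73, edgeR adjusted p = 0.751), with 2246 ± 1275 CPM in mural mTORi and 3232 ± 165 CPM in mural WT libraries. As a description chosen after these values were seen, the 3p arm made up 24 of the 53 miR-503 counts in mural mTORi libraries (45.3%, exact 95% interval 31.6 to 59.6, 25% to 66.7% per library). In mural WT libraries it made up 48 of 461 (10.4%, interval 7.78 to 13.6), and in mural diapaused libraries 83 of 484 (17.1%, interval 13.9 to 20.8). These intervals rest on counts summed over libraries and cover counting error only, not the spread between libraries.

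**Figure D2:**
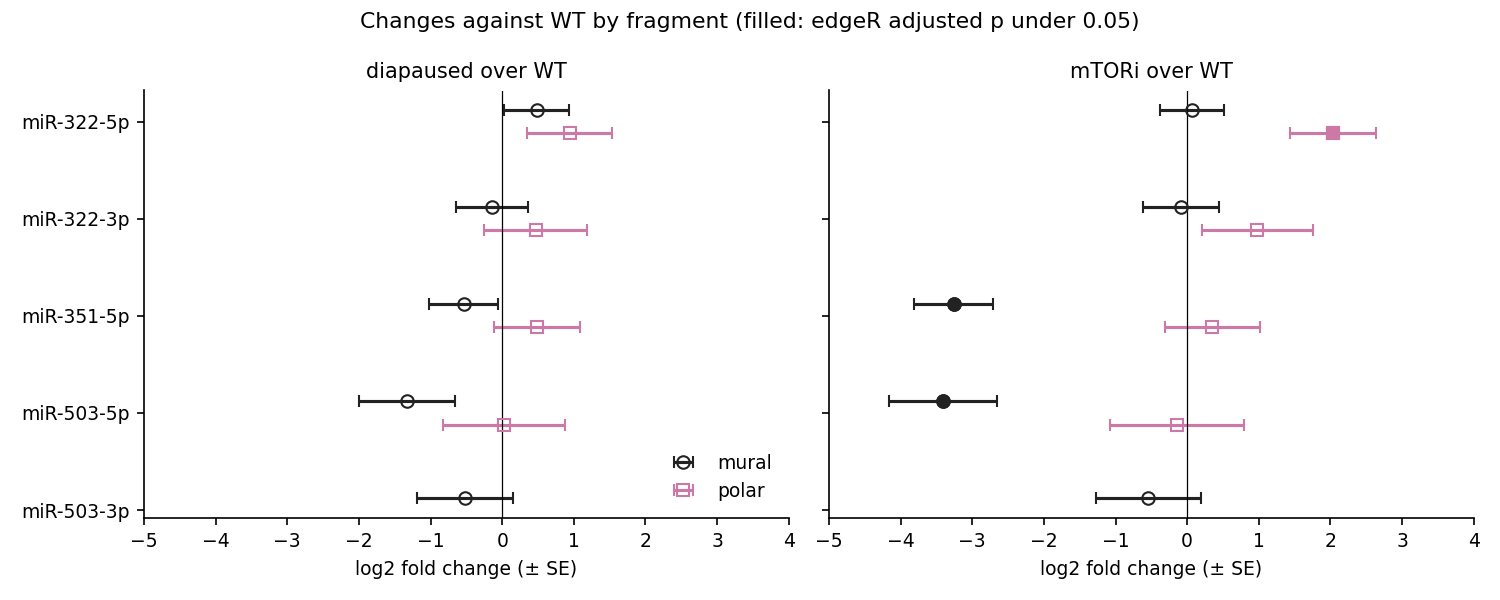
log2 fold change against WT (± SE, linear axis of log2 values) of each member in mural fragments (circles) and polar fragments (squares), for diapaused embryos (left) and mTORi embryos (right); filled symbols passed an edgeR adjusted p of 0.05. In mural mTORi fragments miR-351-5p and miR-503-5p lay at -3.26 and -3.41. There miR-322-5p and miR-322-3p lay near 0 and miR-503-3p at -0.54 (SE 0.73). Polar miR-503-3p, with 1 count in WT, is not drawn.

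In polar fragments, mTORi went with a higher miR-322-5p and with no called change of the rest. miR-322-5p averaged 7043 ± 4527 CPM in polar mTORi (SD, n = 3) and 1548 ± 722 CPM in polar WT libraries (n = 2), which is 4.11-fold (log2 2.04, SE 0.60, edgeR adjusted p = 0.0236), in a comparison that called 12.7% of the tested miRNAs higher. That call was lost without polar mTORi replicate 2 (log2 1.19), without either polar WT library, and in a fit of these groups alone (edgeR adjusted p = 0.214). miR-351-5p had a log2 value of 0.35 (SE 0.66, edgeR adjusted p = 0.734), miR-503-5p one of -0.14 (SE 0.93, adjusted p = 0.919) and miR-322-3p one of 0.98 (SE 0.77, adjusted p = 0.373). miR-503-3p had 6 counts in polar mTORi and 1 in polar WT libraries. The mTORi effect on miR-351-5p was lower in mural than in polar fragments by log2 3.60 (SE 0.86), but its test of the difference between pieces did not pass (edgeR adjusted p = 0.0651). For miR-503-5p the difference between pieces was -3.27 (SE 1.22) and for miR-322-5p -1.97 (SE 0.75), each at an edgeR adjusted p of 0.27. None of the 102 miRNAs (0%) was called in the main edgeR fit of this test, where 14 had an unadjusted p under 0.05. With same-numbered mural and polar libraries as blocks, miR-351-5p was the 1 miRNA called. miR-351-5p was called with DESeq2 size factors (edgeR adjusted p = 0.0441), with DESeq2, as the one call of that tool (adjusted p = 0.000313), without the filter (edgeR adjusted p = 0.00845), and without polar WT replicate 1 (log2 -2.94), which has 0 counts of it.

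Against WT, natural diapause gave 0 called members in either piece with edgeR and 0 with DESeq2, and 0 members had an unadjusted p under 0.05. Of all tested miRNAs, edgeR called 9.8% in mural and 7.84% in polar fragments. The widest mural value was that of miR-503-5p, at 11142 ± 3885 CPM in diapaused (SD, n = 3) and 27917 ± 265 CPM in WT libraries (n = 2), or log2 -1.33 (SE 0.67, edgeR adjusted p = 0.285). It was called in a fit of the mural diapaused and WT groups alone (log2 -1.50, edgeR adjusted p = 0.0141). In mural fragments miR-351-5p was at log2 -0.54 (SE 0.48, edgeR adjusted p = 0.649) and miR-322-5p at 0.48 (SE 0.45, adjusted p = 0.685), beside a median of 0.19 for all tested miRNAs. In polar fragments the members other than miR-503-3p were between log2 0.03 and 0.94, with edgeR adjusted p of 0.299 and above. miR-503-3p had 17 counts in polar diapaused and 1 in polar WT libraries, a ratio of 3.25 with an exact 95% interval of 0.509 to 136 (counting error only).

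Set against each other, diapaused and mTORi mural fragments differed in miR-351-5p, at 11654 ± 966 CPM in diapaused and 1782 ± 474 CPM in mTORi libraries (SD, n = 3 each). The log2 difference was 2.71 (SE 0.51, edgeR adjusted p = 0.00613), beside a median of 0.41 over all tested miRNAs. miR-351-5p was the single miRNA called among the 102, which is 0.98% of them; DESeq2 called 5 miRNAs, miR-351-5p among them. Leaving out mural diapaused replicate 1 or any of the 3 mural mTORi libraries ended the call (edgeR adjusted p up to 0.0779), with log2 values of 2.25 to 2.73 over all 6 such fits. miR-503-5p was at log2 2.09 (SE 0.70, edgeR adjusted p = 0.0687) and was called without the filter and in a fit of the mural diapaused and mTORi groups alone. miR-322-5p was at 0.41 (SE 0.40, edgeR adjusted p = 0.531), miR-322-3p at -0.06 (SE 0.47, adjusted p = 1) and miR-503-3p at 0.01 (SE 0.66, adjusted p = 1). In polar fragments edgeR called 0 members, where it called 15.7% of the tested miRNAs. miR-322-5p was at log2 -1.10 there (SE 0.45, edgeR adjusted p = 0.101), the 1 member with an unadjusted p under 0.05, and was called with DESeq2 (adjusted p = 0.0402). It was also called without polar mTORi replicate 3 (log2 -1.56, edgeR adjusted p = 0.019), but was at log2 -0.38 without polar mTORi replicate 2. The comparisons share libraries: mural mTORi enters both this one and the one with WT.

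Ratios between members of a library do not depend on how libraries are scaled, and they carried the same contrast. For every 100 counts of miR-322-5p and miR-351-5p together, miR-351-5p took 30.2, 34.1 and 25.7 in mural diapaused, 6.93, 7.94 and 8.75 in mural mTORi, and 45.4 and 47.1 in mural WT libraries. The 3 mural groups did not overlap. The polar libraries were more scattered, at 33.9 to 58.5 in diapaused, 20.0 to 38.5 in mTORi, and 0 and 58.3 in WT, where miR-322-5p itself had 2 and 10 counts. For miR-503-5p and miR-322-5p together, miR-503-5p took 32.0, 22.9 and 29.5 in mural diapaused, 13.8, 13.4 and 6.41 in mural mTORi, and 56.7 and 60.4 in mural WT libraries. miR-503-5p thus outnumbered miR-322-5p in mural WT libraries, by a ratio of summed counts of 1.42, and was the scarcer one in mural diapaused, at 0.390, and mural mTORi libraries, at 0.129. Efficiency of adapter ligation differs between miRNA sequences, so a ratio tells the libraries apart and not the true amounts of the pair.

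The log2 ratios were tested by exact two-sided permutation of treatments within each piece, or of pieces within each treatment, with 12 tests adjusted together. Each fit that left out a library was adjusted anew over all the ratio tests, so its adjusted p also depends on the other tests. The ratio of miR-351-5p to miR-322-5p was higher in diapaused than in mTORi libraries by log2 1.65 (exact permutation p = 0.01, adjusted p = 0.03, n = 6 each). This passed without any 1 of the mTORi libraries but not without any 1 of the diapaused libraries (adjusted p up to 0.06). Leaving out a diapaused library also raised the smallest possible exact p of the diapaused over WT tests in the same adjustment. The log2 difference of this ratio stayed between 1.45 and 1.83 in these 12 fits. Between mTORi and WT it differed by -1.83 (exact permutation p = 0.06, adjusted p = 0.103, n = 6 and 4), with -3.24 within mural and -0.43 within polar fragments. The polar value was -1.82 without polar WT replicate 1, which had 0 and 2 counts of the pair, and 0.97 without polar WT replicate 2. The ratio of miR-503-5p to miR-322-5p was lower in diapaused than in WT libraries by log2 1.40 (exact permutation p = 0.01, adjusted p = 0.03, n = 6 and 4), which is the smallest p this design can give. That call was lost in all 10 fits that left out a library (adjusted p 0.05 to 0.171) and with libraries of at least 20 counts (-1.52, adjusted exact permutation p = 0.072). In those 10 fits the smallest possible exact p was 0.0167 or 0.025, which left little room to pass after adjustment. The log2 difference stayed between -1.57 and -1.21 in them. With all libraries, it was -1.86 within mural and -0.95 within polar fragments, without overlap in either. Polar WT replicate 1 held 2 counts of each miRNA of this pair. The share of other pairs of miRNAs whose ratios do not overlap was not computed for any comparison. The polar value was -0.57 without polar diapaused replicate 2. Between mTORi and WT the same ratio differed by -3.19 (exact permutation p = 0.03, adjusted p = 0.06), with -3.49 within mural and -2.88 within polar fragments. Polar mTORi replicate 2, with 0 counts of miR-503-5p, had a log2 ratio of -5.83, and the others -0.35 and -1.77; without that library the polar value was -1.29. Between diapaused and mTORi it differed by 1.78 (exact permutation p = 0.025, adjusted p = 0.06). Between mural and polar fragments over all treatments, the miR-503-5p ratio differed by log2 -0.24 (exact permutation p = 0.694) and the miR-351-5p ratio by -0.78 (exact permutation p = 0.177). The miR-351-5p ratio passed with libraries of at least 20 counts (-1.12, adjusted exact permutation p = 0.015) and without polar WT replicate 1 (-1.24, adjusted exact permutation p = 0.01). Its difference was -0.94 within diapaused and -2.10 within mTORi embryos, without overlap, and the diapaused value was -0.55 without polar diapaused replicate 3. Within WT it was 0.71, with overlap, but -0.68 without polar WT replicate 1 and 2.10 without polar WT replicate 2. Within a single piece, 3 libraries against 2 or against 3 cannot go below an exact p of 0.1.

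**Figure D3:**
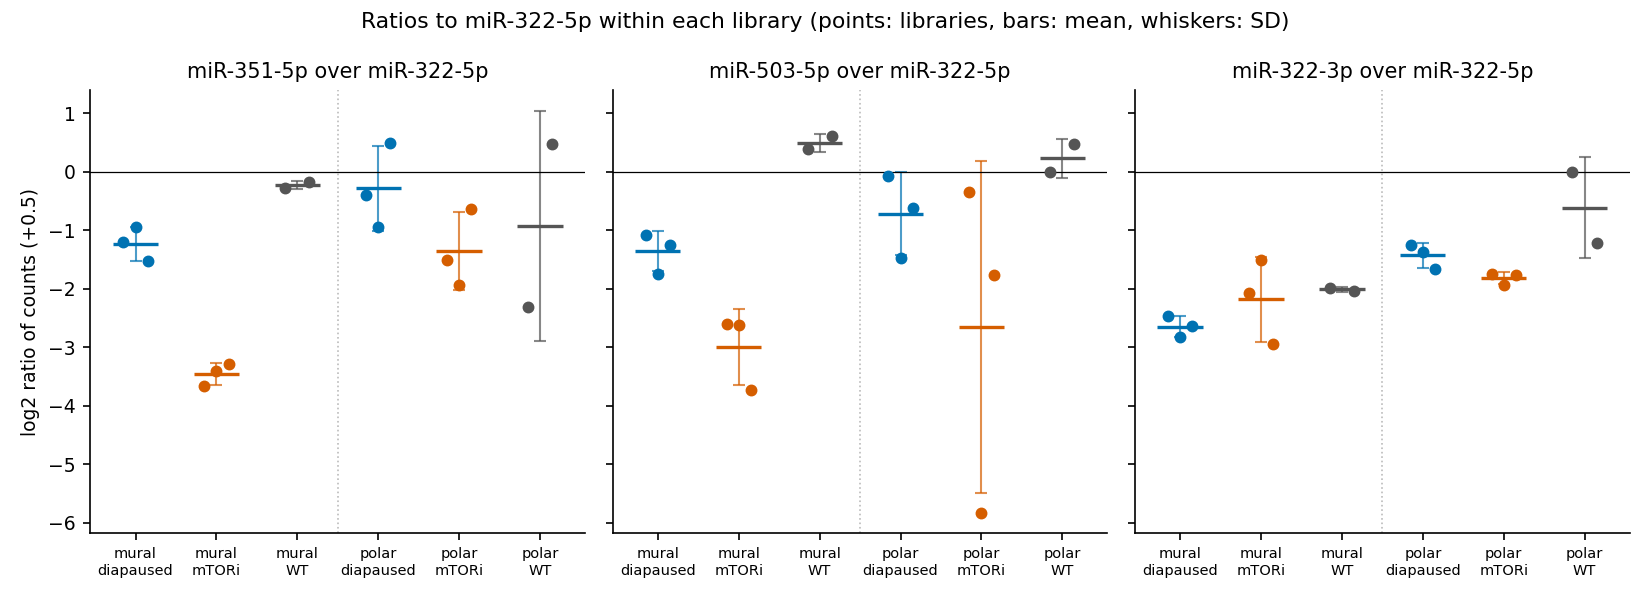
log2 ratio of counts (with 0.5 added to each) of miR-351-5p, miR-503-5p and miR-322-3p to miR-322-5p in each library, by piece and treatment; points are libraries, bars are means and whiskers are SDs. In mural fragments the miR-351-5p ratio averaged -1.23 in diapaused, -3.45 in mTORi and -0.22 in WT libraries, with no overlap.

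The balance of the Mir322 arms was compared in the same way. The log2 ratio of miR-322-3p to miR-322-5p averaged -2.65 ± 0.18 in mural diapaused, -2.18 ± 0.73 in mural mTORi and -2.01 ± 0.04 in mural WT libraries, against -1.43 ± 0.22 in polar diapaused, -1.81 ± 0.10 in polar mTORi and -0.61 ± 0.86 in polar WT libraries. It was lower in mural than in polar fragments by log2 0.99 (exact permutation p = 0.005, adjusted p = 0.03, n = 8 each), where the smallest possible p is 0.000833, and 7 of the 16 fits that left out a library passed (adjusted p up to 0.06). When pieces were exchanged within same-numbered pairs of libraries instead, the exact permutation test gave an adjusted p of 0.06. Within treatments the log2 difference was -1.22 for diapaused and -1.40 for WT, without overlap, and -0.36 for mTORi, with overlap. The WT value was -0.79 without polar WT replicate 1, and the mTORi value 0.02 without mural mTORi replicate 3. The arm ratio was also lower in diapaused than in WT libraries, by log2 0.73 (exact permutation p = 0.01, adjusted p = 0.03, n = 6 and 4), a call lost in all 10 fits that left out a library (adjusted p 0.05 to 0.0857) and with a pseudocount of 0.25 (adjusted p = 0.06). The smallest possible exact p in those 10 fits was 0.0167 or 0.025, which left little room to pass after adjustment. Their log2 differences ranged from -1.03 to -0.42, the latter without polar WT replicate 1, which holds 2 counts of each arm. For mTORi against WT it was -0.68 (exact permutation p = 0.12, adjusted p = 0.18), and for diapaused against mTORi -0.04 (exact permutation p = 0.88). Of the 8 polar libraries, 7 held 14 or fewer counts of miR-322-3p.

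As a share of the cluster, the balance of members shifted with treatment in mural fragments. miR-322-5p made up 48.4% ± 2.62 of the member counts in mural diapaused, 64.8% ± 4.80 in mural mTORi and 27.2% ± 1.57 in mural WT libraries (SD, n = 3, 3 and 2). miR-503-5p made up 19.1% ± 3.90 in mural diapaused, 8.12% ± 2.88 in mural mTORi and 38.4% ± 1.95 in mural WT libraries. The member with the largest share was thus miR-322-5p in every mural diapaused and mTORi library, and miR-503-5p in both mural WT libraries.

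**Figure D4:**
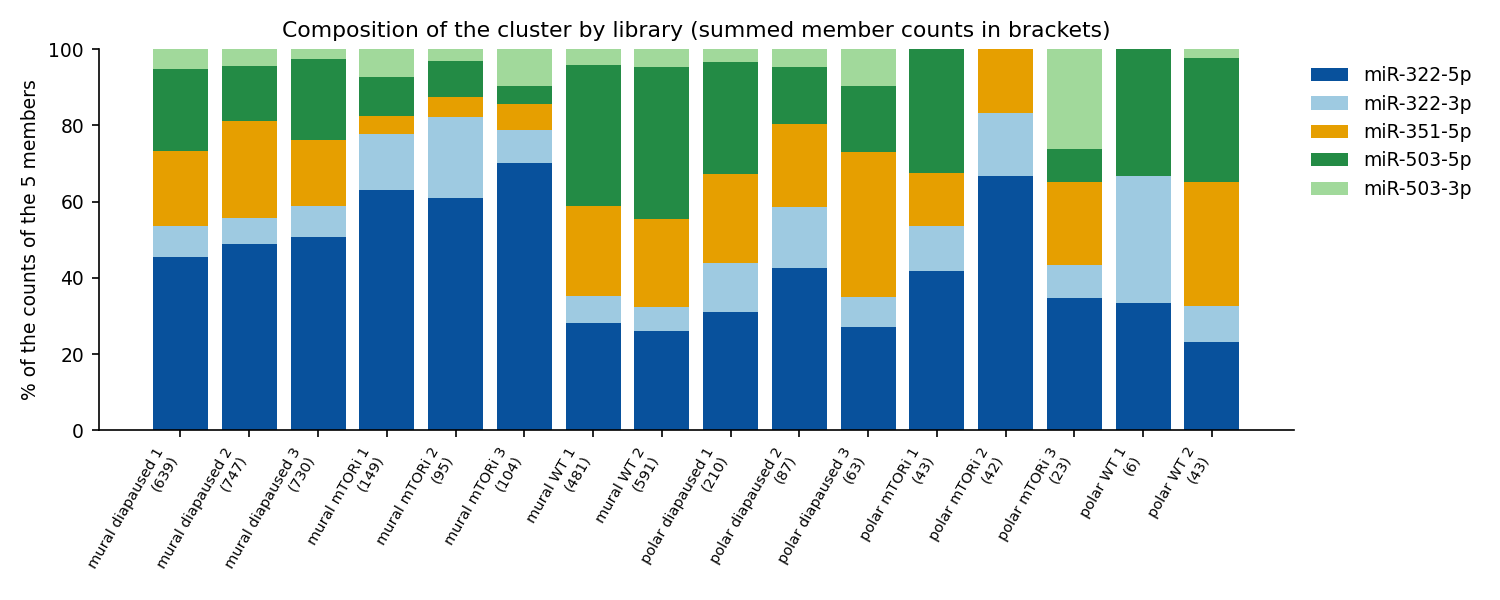
Share of each member (percent of the summed counts of the 5 members) in every library, with the summed counts in brackets. Dark blue miR-322-5p took 61.1% to 70.2% in mural mTORi libraries, 45.5% to 50.7% in mural diapaused and 26.1% to 28.3% in mural WT libraries; polar libraries rest on 6 to 210 counts.

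Further products of the locus were too sparse for the filter. Of 8 other names from Mir351, Mir542 and the Mir450 hairpins, 5 had any count. miR-351-3p, the other arm of miR-351-5p, had 10, 11 and 12 counts in mural diapaused, 1, 0 and 0 in mural mTORi, and 4 and 12 in mural WT libraries. miR-542-3p, from the next hairpin downstream, had 14, 23 and 20 counts in mural diapaused, 1, 0 and 0 in mural mTORi, and 11 and 10 in mural WT libraries. Both were near 0 in mural mTORi libraries. After scaling, the ratio of mural mTORi to mural WT was 0.085 for miR-351-3p (exact 95% interval 0.00203 to 0.547) and 0.0647 for miR-542-3p (interval 0.00157 to 0.402). Both intervals rest on summed counts and cover counting error only. With every detected miRNA tested, neither was called (edgeR adjusted p = 0.414 for miR-351-3p and 0.124 for miR-542-3p, over 497 miRNAs). In polar fragments miR-542-3p had 20 counts in diapaused and 0 in mTORi and WT libraries.

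Relatives by seed did not pass the test where the members did. Of the miR-15/16 list of 5 names, miR-15a-5p and miR-15b-5p were tested, and neither was called in any comparison; in mural mTORi against mural WT miR-15a-5p was at log2 -0.16 (SE 0.69, edgeR adjusted p = 0.95) and miR-15b-5p at -0.84 (SE 1.25, adjusted p = 0.765). miR-125a-5p, with the seed of miR-351-5p, is encoded on chromosome 17 and was at log2 -1.16 in the same comparison (SE 0.43, edgeR adjusted p = 0.0894). miR-125b-5p had no count. Of the 13 other tested miRNAs with at least 1 gene on chromosome X, 0 were called higher in mural fragments in any treatment or on average. On average 3 were called lower, miR-92a-3p among them. Names that also have a gene on another chromosome were not set apart, so their counts need not come from chromosome X. In mural mTORi against WT, 0 of these 13 were called higher and 1 lower.

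The miRNAs whose log2 levels over the 16 libraries were most like those of miR-322-5p by Pearson correlation were its own 3p arm (r = 0.93, Spearman rho = 0.79) and, outside the cluster, miR-200b-3p (r = 0.76, rho = 0.77), miR-294-3p (r = 0.76, rho = 0.82), miR-10b-5p (r = 0.76, rho = 0.74), miR-378a-3p (r = 0.74, rho = 0.86) and miR-30d-5p (r = 0.67, rho = 0.81). Of these, miR-378a-3p, miR-294-3p and miR-30d-5p had a higher rho than the 3p arm. For the other members r was 0.67 for miR-351-5p, 0.66 for miR-503-3p and 0.54 for miR-503-5p, and rho was 0.49 for miR-351-5p, 0.66 for miR-503-3p and 0.61 for miR-503-5p. Mural and polar libraries form separate clusters of miR-322-5p levels, and the pooled values include the difference between pieces. Within the 8 mural libraries r was -0.08 for miR-322-3p, 0.33 for miR-351-5p, 0.16 for miR-503-5p and 0.30 for miR-503-3p. Outside the cluster it was 0.71 for miR-200b-3p, 0.53 for miR-294-3p, 0.10 for miR-10b-5p, 0.69 for miR-378a-3p and 0.51 for miR-30d-5p. Within the 8 polar libraries r was 0.84 for miR-322-3p, 0.60 for miR-351-5p, -0.22 for miR-503-5p and -0.24 for miR-503-3p. Outside the cluster it was 0.65 for miR-200b-3p, 0.83 for miR-294-3p, 0.78 for miR-10b-5p, 0.20 for miR-378a-3p and 0.70 for miR-30d-5p. All values share the depth and the TMM scaling of their library.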

How the data were processed

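The deposited files hold whole-number counts per mature miRNA name, without normalization, 1 file per library. Per the labels' protocols, the adapters carried unique molecular identifiers, amplification took 12 to 20 cycles, small RNAs were not selected by size, and reads had 75 nt. The submitters' processing notes give GRCm38 as the build. The sources used here name no aligner or counter and do not say whether identifiers were collapsed. If identifiers were not collapsed, PCR copies would narrow the counting intervals. Libraries were grouped by tissue and treatment labels.

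Counts were analysed with edgeR 4.0.16 in R 4.3.3. filterByExpr (minimum count 10, minimum total 15) kept 102 miRNAs with 92.83% to 97.61% of each library's counts. TMM factors were used, and a quasi-likelihood model with 6 group means was fitted over 16 libraries (10 residual degrees of freedom, common dispersion 0.1417), with 13 contrasts. Levels are scaled to 1000000 counts. Both tests were tried on simulated data with known changes. Ratios within libraries used log2 of counts plus 0.5 and exact stratified permutation (Python 3.11.15). Zero counts were read against a floor of 3 counts. Named miRNAs were the 5 members, 8 neighbours of the locus, seed relatives, marker lists, and the miRNAs most like miR-322-5p by Pearson correlation. Members and lists were chosen with earlier results of these data known. Of the 1978 names, 1679 matched the RefSeq sequence table.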

Additional observations from a re-analysis of the deposited data

How the results depend on the processing

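In mural fragments, mTORi against WT gave 2 called members under DESeq2 size factors (RLE), library size alone, no filter, DESeq2 1.42.0, a fit of the compared groups alone and the replicate block, and in all 5 fits that left out a library. No alternative turned the direction of a called result. Under library size alone, mural over polar gave 2 called members in diapaused and 0 in mTORi embryos. Fits of the compared groups alone gave 0 for mural over polar in mTORi, 1 for diapaused over WT in mural, 0 for mTORi over WT in polar and 2 for diapaused over mTORi in mural fragments. Without the filter, diapaused over mTORi gave 2 in mural fragments and the mTORi minus WT difference between pieces gave 2. DESeq2 gave 1 for diapaused over mTORi in polar fragments, and 1 each for the mTORi minus WT and mTORi minus diapaused differences between pieces. RLE gave 1 for mTORi minus WT. The labels do not say whether equal numbers mark the same embryos, so the numbers were not taken as pairs in the main tests. On levels less their group mean, same-numbered mural and polar libraries correlated at 0.31 and 0.31 in WT, 0.11, -0.01 and 0.36 in diapaused and 0.16, 0.11 and 0.18 in mTORi. These values do not settle the pairing. The WT values are equal by construction, as each piece has 2 libraries there. Each mTORi library correlated best with its own number, while diapaused replicates 1 and 2 did not. A fit with the replicate block gave 1 called member (miR-351-5p) for the mTORi minus WT difference between pieces and took the mural over polar ratio of miR-322-3p to miR-322-5p (-0.99) to an adjusted p of 0.06.

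Among ratios to miR-322-5p, libraries with at least 20 counts gave -1.12 for miR-351-5p in mural over polar (adjusted exact permutation p = 0.015) and -1.52 for miR-503-5p in diapaused over WT (0.072). A pseudocount of 1 gave -2.95 for miR-503-5p in mTORi over WT (adjusted exact p = 0.024), and 0.25 gave -0.73 for miR-322-3p in diapaused over WT (0.06). Leaving out 1 library gave 2 to 3 called members for mural over polar in WT, 2 to 5 in diapaused, 0 to 2 in mTORi and 5 on average; these counts include miR-503-3p, which passed the filter only through mural libraries. It gave 0 to 1 for mTORi over WT in polar fragments, for diapaused over mTORi in either piece and for the differences from WT between pieces. The miR-351-5p ratio ranged from -1.24 to -0.31 in mural over polar and from 1.45 to 1.83 in diapaused over mTORi. The miR-503-5p ratio ranged from -1.57 to -1.21 in diapaused over WT, -3.76 to -2.39 in mTORi over WT and 0.99 to 2.36 in diapaused over mTORi. The miR-322-3p ratio ranged from -1.20 to -0.79 in mural over polar, -1.03 to -0.42 in diapaused over WT and -0.99 to -0.38 in mTORi over WT. With 1 library left out, no adjusted p of a diapaused over WT ratio was below 0.05; the smallest raw p was then 0.0167 or 0.025. The cause of these moves was not tested.

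The median of all tested miRNAs and the split of calls moved with scaling. For mural over polar in diapaused embryos, 14 were called higher and 5 lower with TMM, against 2 and 13 with library size alone. Over the average of treatments, the split was 15 and 13 against 9 and 16. For diapaused over mTORi in mural fragments it was 1 and 0 against 1 and 4 with RLE, where the median was 0.24, against 0.41 with TMM. RLE gave 4 and 7 in place of 6 and 6 for mTORi over WT in mural fragments, 6 and 7 in place of 6 and 2 for diapaused over WT in polar fragments, and 6 and 10 in place of 8 and 8 for diapaused over mTORi in polar fragments. Library size alone gave 3 and 2 in place of 8 and 2 for diapaused over WT in mural fragments, 11 and 15 in place of 13 and 10 for mTORi over WT in polar fragments, and 1 and 3 in place of 2 and 3 for mural over polar in mTORi. Polar WT and mTORi libraries, with 6 to 43 member counts each, limit every polar value. Mural mTORi libraries hold 5 to 7 counts of miR-351-5p and 5 to 15 of miR-503-5p, which limits those values too.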
